A study of Homo sapiens with 24 samples.

Results

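CD55, CD46 and CD59 are membrane proteins that shield human cells from their own complement, and their mRNAs were followed through every condition of an RNA-seq study of LNCaP prostate cancer cells. The genes were taken by symbol, 3 of 22227 genes in the ligand tables and 3 of 23028 in the siRNA tables, and all 3 passed the filters on low values. The set was chosen by the measured rise of CD55 after 24 h of enzalutamide, known from these libraries, so its values there are given as a description without a test. LNCaP is an androgen-dependent line derived from a prostate adenocarcinoma metastasis. The labels of the sequenced samples give charcoal-stripped, hence androgen-depleted, serum for 3 days before treatment. The published methods give that period for ChIP cells and state none for the RNA-seq cells. In the ligand experiment, the 5 conditions were vehicle, 10 µM enzalutamide (labelled MDV; an androgen receptor antagonist) for 4 h or 24 h, and 10 nM dihydrotestosterone (DHT, an androgen) for 4 h or 24 h. The labels give no time for vehicle, so both times were set against the same vehicle. In the siRNA experiment, cells transfected with a non-targeting siRNA (siControl) or an siRNA against GATA2 (siGATA2), a zinc finger transcription factor, were given enzalutamide at 25 µM or its vehicle over 24 h, starting 72 h after transfection, with 3 biological replicates each. The siRNA lowers GATA2 but does not remove it, and both experiments used this 1 cell line.

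Complement is a cascade of plasma proteins in which C3 and C5 convertases deposit fragments on a cell and recruit the membrane attack complex. CD55 (decay-accelerating factor) speeds the dissociation of the convertases, CD46 (membrane cofactor protein) is a cofactor for the cleavage of deposited C3b and C4b by factor I, and CD59 (protectin) blocks the assembly of the terminal pore. CD55 and CD59 are held to the membrane by a glycosylphosphatidylinositol (GPI) anchor, whereas CD46 spans it. Tumour cells commonly carry all of them. CD55 and CD46 lie in the cluster of complement regulator genes on chromosome 1, and CD59 lies on chromosome 11.

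The 250 bases upstream of the first annotated start of each gene are shown because these genes, a pair of which are near neighbours, differed in how they changed. The letters come from RefSeq on build GRCh38.p14 (the deposited tables were made on hg19), are written 5′ to 3′ on the strand of the gene, and carry in capitals each match to a searched motif on either strand.
CD55, chr1:207321428-207321677, + strand: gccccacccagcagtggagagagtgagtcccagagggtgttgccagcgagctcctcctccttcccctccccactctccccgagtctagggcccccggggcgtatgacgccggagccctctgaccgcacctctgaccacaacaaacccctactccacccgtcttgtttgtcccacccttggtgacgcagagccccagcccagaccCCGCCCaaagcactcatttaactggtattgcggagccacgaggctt
CD46, chr1:207751788-207752037, + strand: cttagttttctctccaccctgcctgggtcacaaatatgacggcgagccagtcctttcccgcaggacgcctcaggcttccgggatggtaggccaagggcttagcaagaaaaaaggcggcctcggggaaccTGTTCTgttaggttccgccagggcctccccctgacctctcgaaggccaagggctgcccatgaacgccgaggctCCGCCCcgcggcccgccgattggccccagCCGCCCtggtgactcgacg
CD59, chr11:33736480-33736729, - strand: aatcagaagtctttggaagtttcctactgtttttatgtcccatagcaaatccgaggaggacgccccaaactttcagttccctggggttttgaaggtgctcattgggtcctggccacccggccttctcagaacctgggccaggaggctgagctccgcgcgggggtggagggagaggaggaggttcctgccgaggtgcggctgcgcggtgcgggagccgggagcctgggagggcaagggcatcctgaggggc
The motifs were GATAA (bound by GATA factors), AGAACA (part of the androgen response element), GGGCGG (the GC box) and TGACGTCA (the cyclic AMP response element), none of which overlapped another here. The CD55 window held 1 GC box, 64.0% G and C and 12 CpG dinucleotides. The CD46 window held 2 GC boxes, 1 match to the letters AGAACA read on the opposite strand, 64.8% G and C and 19 CpG. The CD59 window held no match, 62.0% G and C and 12 CpG. RefSeq lists further starts that are not printed, 1 for CD46 and 3 for CD59. The window of the second CD59 start, which overlaps the printed one, held 2 GC boxes, 70.4% G and C and 18 CpG, and that of the second CD46 start held 3 GC boxes and the same AGAACA match. Over 35116 promoter windows of this length, 20.4% held GATAA, 12.4% AGAACA, 42.6% GGGCGG and 1.65% TGACGTCA, with a median of 58.0% G and C and 11 CpG. A match is a string of letters and does not show binding.

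Before the members, the libraries were checked. The ligand libraries held 38894876 to 59985287 estimated counts. Of the 4 vehicle columns, 3 carried the same replicate number. They differed from each other by a mean chi-square of 1.53 to 1.56 per gene, and from the remaining vehicle column by 3.56 to 3.74. They were summed as 1 replicate, so every ligand condition had n = 2, although the sample titles number all vehicle samples as separate replicates. Replicates of the treated conditions differed by 2.028 (DHT 4 h), 2.285 (enzalutamide 24 h), 4.566 (DHT 24 h) and 9.824 (enzalutamide 4 h). Relative depths of the siRNA libraries, read from the steps between low RPKM values, ranged from 0.868 to 1.13. GATA2 measured 82.3 ± 4.72 (SD) RPKM in siControl vehicle and 51.4 ± 4.22 in siGATA2 vehicle, and 129.3 ± 1.97 and 62.1 ± 2.37 under enzalutamide (n = 3 each). It was lower with its siRNA in each medium (limma, log2 fold change -0.68, adjusted p = 3.12e-06, and -1.06, adjusted p = 1.07e-07). KLK3, the prostate-specific antigen gene, went from 256.5 CPM in vehicle to 2117 after 24 h of DHT and 110.0 after 24 h of enzalutamide (n = 2 each). All 7 luminal prostate markers checked were present in every library, while the leukocyte genes PTPRC, CD14 and CD3E and the stromal genes COL1A2, DCN and PECAM1 stayed at or below 0.101 CPM and 0.0409 RPKM. The leukocyte gene LYZ reached 0.223 CPM and 0.117 RPKM. COL1A1 (13.9 to 28.8 CPM), VWF (8.55 to 20.7 CPM) and ENO2 (39.1 to 62.2 CPM) were also detected. In bulk RNA, fewer cells expressing a gene and less mRNA per cell cannot be told apart.

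In cells given the non-targeting siRNA and vehicle the regulators were unequal. Per length of transcript, CD46 stood at 35.4 ± 1.55 RPKM in siControl vehicle cells, CD59 at 13.1 ± 0.401 and CD55 at 0.788 ± 0.117 (SD, n = 3 each). The mean of CD46 was therefore 44.9 times that of CD55 and 2.69 times that of CD59. Averaged over the siRNA libraries, CD46 exceeded 91.7% of all genes tested, CD59 80.3% and CD55 40.6%. Enzalutamide narrowed the distance between CD46 and CD55 in siControl cells to 11.6 times, whereas in siGATA2 cells the ratio was 74.4 in vehicle and 89.0 under enzalutamide. CD55 was thus the rarest of these mRNAs in all 4 siRNA conditions, whereas CPM of the ligand conditions allow no such comparison between genes.

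**Figure D1:**
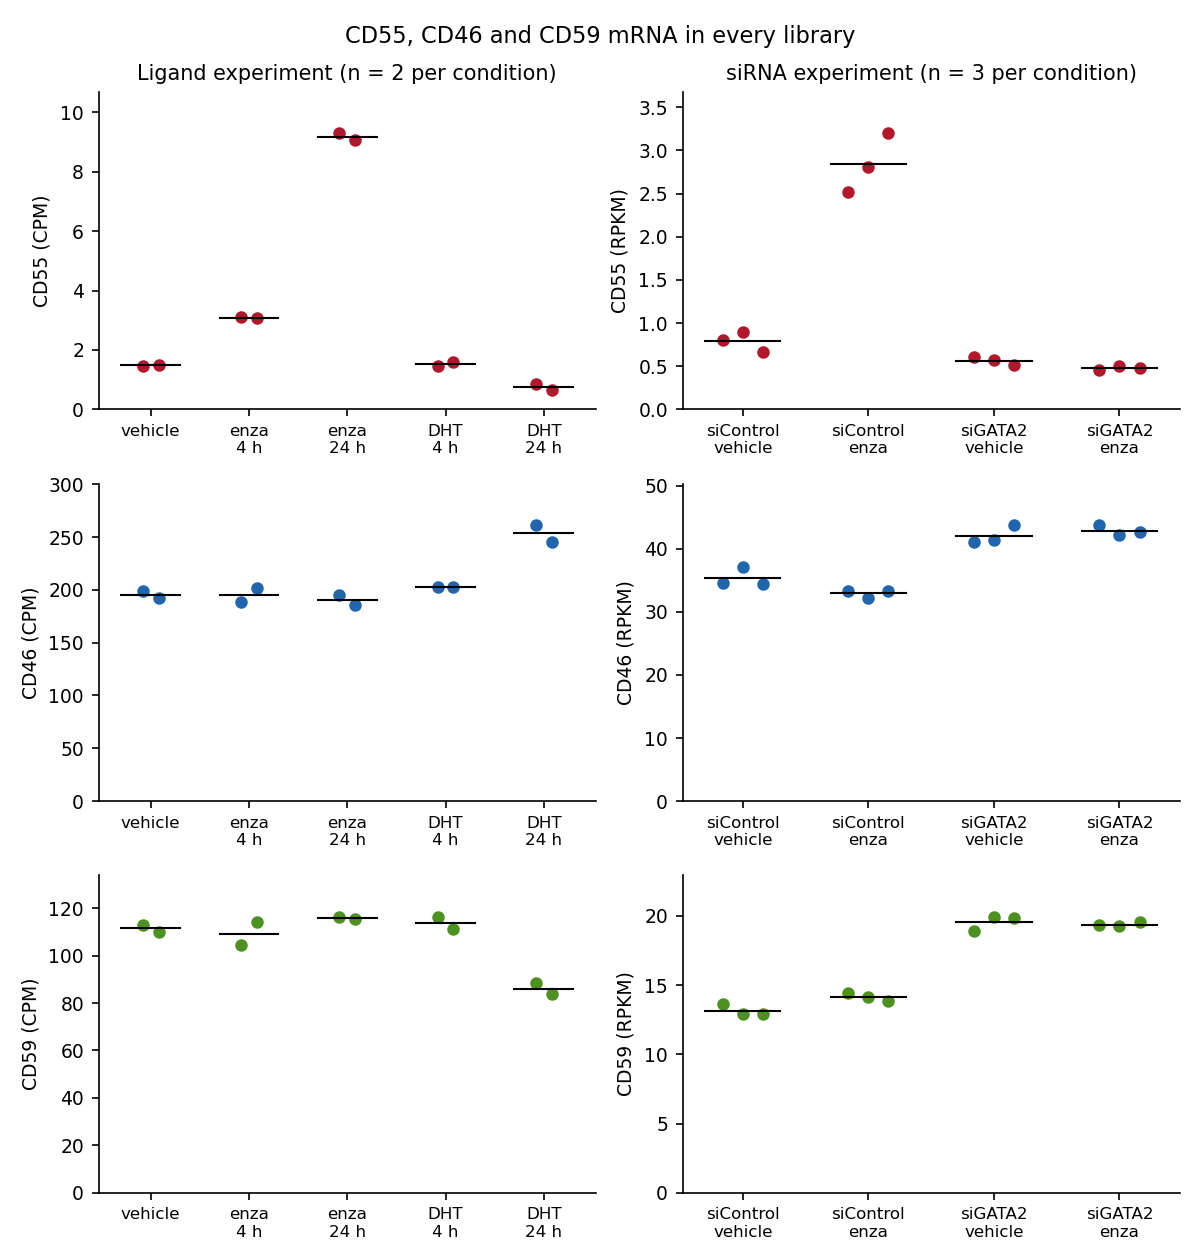
Level of CD55, CD46 and CD59 in every library, in library-scaled counts (CPM) for the ligand experiment (left, n = 2 per condition) and in RPKM for the siRNA experiment (right, n = 3 per condition). Points are libraries, lines are group means, axes start at 0, and enza stands for enzalutamide. CD55 was highest after 24 h of enzalutamide (9.06 and 9.29 CPM) and in siControl cells under enzalutamide (2.52 to 3.20 RPKM), CD46 was highest after 24 h of DHT, and CD59 was lowest there and higher in siGATA2 than in siControl cells.

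The ligand experiment asked how the antagonist and the androgen each change transcription over time. Levels are in CPM, counts scaled to a common library size. CD55 measured 1.470 and 1.498 CPM in the vehicle libraries. After 4 h of enzalutamide it measured 3.10 and 3.06 CPM, and after 24 h 9.29 and 9.06 CPM. After 4 h of DHT it measured 1.45 and 1.58 CPM, and after 24 h 0.842 and 0.663 CPM. The order from low to high was DHT 24 h, vehicle and DHT 4 h, enzalutamide 4 h and enzalutamide 24 h, in which only vehicle and DHT 4 h overlapped. The estimated counts behind these levels were 89 and 59 in vehicle, 132 and 151, then 471 and 449 with enzalutamide at 4 h and 24 h, and 77 and 85, then 46 and 26 with DHT, so the DHT 24 h value rests on the fewest reads.

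At 4 h of enzalutamide, CD55 was the only one of the 3 genes to pass the test, in a comparison where 13.6% of the 15555 genes tested did so. It rose by 1.06 on the log2 scale (SE 0.138, edgeR adjusted p = 0.000329), a ratio of 2.08 between the CPM means. This test shares its vehicle libraries with the 24 h contrast that chose CD55, so it is not independent of that choice. CD46 (log2 fold change -0.002, 95% interval -0.10 to 0.09, adjusted p = 0.986) and CD59 (-0.03, interval -0.13 to 0.07, adjusted p = 0.753) did not pass. At 24 h, CD55 stood 2.63 above vehicle on the log2 scale, 6.18 times its CPM mean, and 1.57 above its own 4 h level. The rise over vehicle was the 18th largest fitted change in size of the 15555 genes. CD55 was chosen by this rise, so the rank is a description only. In that comparison 33.4% of all genes passed, and 24.6% passed between 24 h and 4 h, which is only background since these contrasts chose CD55. CD46 (log2 fold change -0.04, interval -0.13 to 0.05, adjusted p = 0.53) and CD59 (0.05, interval -0.05 to 0.15, adjusted p = 0.426) again missed the threshold against vehicle, and so they did between 24 h and 4 h (adjusted p = 0.573 and 0.233).

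After 4 h of DHT none of the 3 genes passed the edgeR test (adjusted p = 0.94 for CD55, 0.568 for CD46 and 0.791 for CD59, and none at an unadjusted p under 0.05), where 6.77% of all genes did and KLK3 had already risen (log2 fold change 1.27, adjusted p = 3.18e-09). DESeq2 called none of them either. After 24 h of DHT all 3 passed, in a comparison in which 50.0% of all genes tested passed, 26.9% higher and 23.2% lower. CD55 fell by 0.95 on the log2 scale (SE 0.173, adjusted p = 0.000485), a ratio of 0.507. CD46 measured 261.3 and 245.4 CPM after DHT against 198.7 and 191.9 in vehicle, and rose by 0.38 (SE 0.043, adjusted p = 9.54e-06). CD59 measured 88.5 and 83.7 CPM after DHT against 112.9 and 110.0 in vehicle, and fell by 0.37 (SE 0.048, adjusted p = 2.54e-05). Between 4 h and 24 h of DHT, where 49.8% of genes passed, CD55 fell by 0.99 (adjusted p = 0.000333), CD46 rose by 0.32 (adjusted p = 3.75e-05) and CD59 fell by 0.40 (adjusted p = 1.32e-05). The enzalutamide and DHT comparisons share their vehicle libraries, so the CD55 rise of 2.63 with the antagonist and its fall by 0.95 with the androgen at 24 h are not independent of each other.

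Across the other ligand conditions CD46 and CD59 kept to a narrow band. CD46 lay at 194.7 and 185.5 CPM after 24 h of enzalutamide, at 188.8 and 201.3 after 4 h, and at 202.5 and 202.7 after 4 h of DHT. CD59 lay at 104.5 and 114.0 CPM after 4 h of enzalutamide, at 116.4 and 111.2 after 4 h of DHT, and at 116.1 and 115.3 after 24 h of enzalutamide. In the order of CD46 (enzalutamide 24 h, enzalutamide 4 h, vehicle, DHT 4 h, DHT 24 h), both DHT conditions lay above the vehicle libraries, but only DHT 24 h passed the test against vehicle. In the order of CD59 (DHT 24 h, enzalutamide 4 h, vehicle, DHT 4 h, enzalutamide 24 h), only DHT 24 h lay apart from its neighbour without overlap.

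The column names of the ligand tables carry a prefix (ZC1, ZC2 or ZC3) whose meaning the sources do not give. Both 4 h enzalutamide libraries carried ZC2 and both 24 h ones ZC3, so time under enzalutamide and prefix cannot be told apart. Nor can time under DHT and prefix, since both 4 h DHT libraries carried ZC1 and the 24 h ones ZC2 and ZC3. A vehicle column of each prefix allows a comparison within it. Within ZC2, CD55 lay 1.07 and 1.04 above vehicle on the log2 scale after 4 h of enzalutamide, and within ZC3 2.35 and 2.31 above it after 24 h. The 24 h DHT libraries fell in 2 prefixes, where CD55 lay at -0.87 (ZC2) and -1.52 (ZC3), CD46 at 0.34 and 0.23, and CD59 at -0.42 and -0.50. CD55 in the vehicle columns of replicate 1 rested on 25, 28 and 36 estimated counts in ZC1, ZC2 and ZC3.

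**Figure D2:**
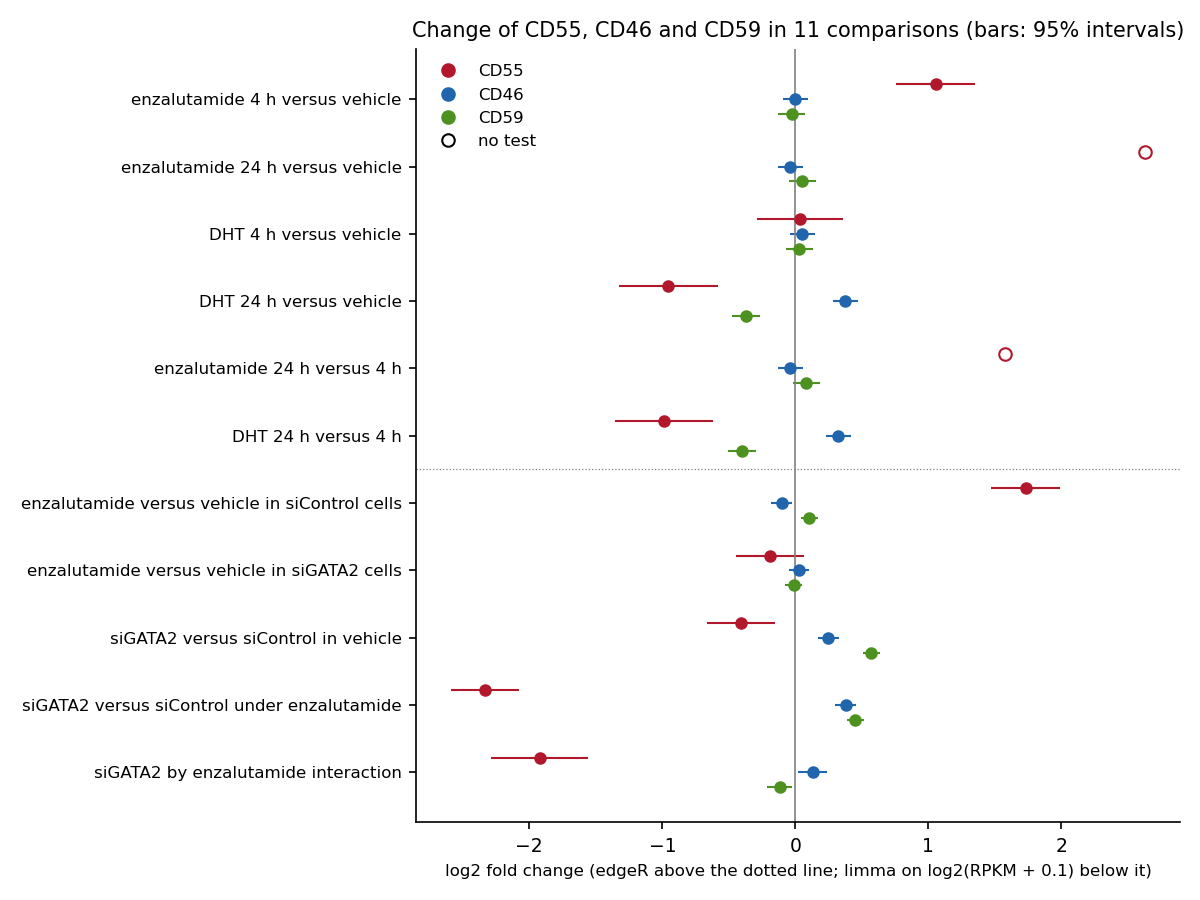
Log2 fold change of CD55, CD46 and CD59 in the 6 ligand comparisons (edgeR, above the dotted line) and the 5 siRNA contrasts (limma on log2(RPKM + 0.1), below it). Bars are 95% intervals, and open circles mark the CD55 values given without a test. CD55 spans from -2.33 to 2.63, whereas CD46 and CD59 stay between -0.40 and 0.57.

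The siRNA experiment asked whether the response to enzalutamide depends on GATA2, in other libraries than those that singled out CD55. In siControl cells CD55 measured 0.808, 0.895 and 0.663 RPKM in vehicle and 2.52, 2.81 and 3.20 RPKM under enzalutamide, with no overlap. It rose by 1.73 on the log2(RPKM + 0.1) scale (SE 0.116, limma adjusted p = 1.39e-06), a ratio of means of 3.60 and the 89th largest change of 20369 genes. All 3 genes passed in this comparison, as did 42.1% of all genes tested. CD46 went from 34.7, 37.2 and 34.4 to 33.4, 32.3 and 33.3 RPKM and fell by 0.10 (SE 0.035, adjusted p = 0.0376). CD59 went from 13.6, 12.9 and 12.9 to 14.5, 14.1 and 13.9 RPKM and rose by 0.11 (SE 0.029, adjusted p = 0.0137). The CD46 call was lost with each library aligned to a common median (-0.05, adjusted p = 0.29) and with the replicate number as a block (-0.10, adjusted p = 0.0698), and leaving out single libraries ended it in 5 of 12 fits and the CD59 call in 2 of 12. The dose was 25 µM here and 10 µM in the ligand experiment, after transfection in one and not in the other, so the CD55 ratios of 3.60 and 6.18 are given side by side without a comparison.

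In siGATA2 cells, CD55 measured 0.610, 0.576 and 0.511 RPKM in vehicle and 0.459, 0.503 and 0.484 RPKM under enzalutamide. The groups did not overlap, but the difference did not pass the test (log2 fold change -0.19, 95% interval -0.45 to 0.07, limma adjusted p = 0.602), and the upper end of that interval lies below the 1.73 of siControl cells. Few genes passed in siGATA2 cells, 0.412% of those tested. CD46 measured 41.1, 41.4 and 43.8 RPKM in vehicle and 43.8, 42.2 and 42.7 under enzalutamide (log2 fold change 0.03, interval -0.05 to 0.11, adjusted p = 0.852). CD59 measured 18.9, 19.9 and 19.8 RPKM in vehicle and 19.3, 19.2 and 19.6 under enzalutamide (-0.01, interval -0.08 to 0.05, adjusted p = 0.933).

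The change of CD55 with enzalutamide was smaller in siGATA2 than in siControl cells by a log2 interaction of -1.92 (SE 0.164, 95% interval -2.29 to -1.56, limma adjusted p = 2.58e-05), the 61st largest in size, where 25.8% of genes passed. The interactions of CD46 (0.13, interval 0.02 to 0.24, adjusted p = 0.0806) and CD59 (-0.12, interval -0.21 to -0.03, adjusted p = 0.0579) did not pass after adjustment. CD59 did so with libraries aligned to a common median (-0.16, adjusted p = 0.0142), CD59 also without replicate 1 of siControl vehicle (adjusted p = 0.0272) or of siGATA2 vehicle (0.0291), and CD46 without replicate 3 of siGATA2 vehicle (0.0307).

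GATA2 siRNA itself moved all 3 genes in vehicle, where 55.6% of genes tested passed, 24.2% higher and 31.4% lower. CD55 was lower in siGATA2 than in siControl cells (log2 fold change -0.41, SE 0.116, limma adjusted p = 0.011, ratio 0.718), and its highest siGATA2 library, at 0.610 RPKM, lay under the lowest siControl library, at 0.663. CD46 was higher (0.25, SE 0.035, adjusted p = 0.000121, ratio 1.19), and so was CD59 (0.57, SE 0.029, adjusted p = 5.29e-08, ratio 1.49). Under enzalutamide, where 54.5% of genes passed, CD55 was lower by more (-2.33, SE 0.116, adjusted p = 4.24e-08, ratio 0.17), the 56th largest change of all genes, while CD46 (0.38, SE 0.035, adjusted p = 4.81e-06, ratio 1.30) and CD59 (0.45, SE 0.029, adjusted p = 3.03e-07, ratio 1.37) were again higher. CD46 and CD59 did not overlap between siControl and siGATA2 cells in either medium, where 55.6% and 54.5% of all genes passed the test. The share of all genes without overlap between groups was not counted, here or for the other comparisons. The order for CD55 was siGATA2 enzalutamide, siGATA2 vehicle, siControl vehicle, siControl enzalutamide, and only the lowest neighbouring pair did not pass the test. The pair of siGATA2 groups likewise did not differ by the test in CD46 and in CD59.

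A call rule of a fold above 2 with an unadjusted p below 0.05, the fold being that of the gene lists of the study, was met by CD55 in 4 of the 9 comparisons in which it was tested and by CD46 and CD59 in 0 of 11. For CD55 these were enzalutamide at 4 h (rule met by 0.752% of all genes), enzalutamide in siControl cells (2.13%), siGATA2 against siControl under enzalutamide (5.78%) and the interaction (1.81%). The comparison at 4 h shares its vehicle libraries with the 24 h contrast that chose CD55. The siRNA comparisons among these all use the siControl libraries under enzalutamide, so they are not independent of each other. The rule was met by 2.89% and 2.30% of all genes in the contrasts that chose CD55, 24 h of enzalutamide against vehicle and against 4 h. In the other 5 comparisons it was met by 1.20% (DHT 4 h), 5.86% (DHT 24 h), 4.54% (DHT 24 h against 4 h), 0.191% (enzalutamide in siGATA2 cells) and 5.64% (siGATA2 against siControl in vehicle). Several CD55 values lay near the limit of 1 on the log2 scale. With the column-name prefix as a block, an alternative chosen after seeing the data, CD55 at 4 h of enzalutamide was 0.88 and missed the fold, while DHT 24 h against vehicle (-1.13) and against 4 h (-1.28) met it.

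Few other complement genes were detected at more than trace levels. Of 54 further complement genes listed, 12 passed the count filter in the ligand tables and 37 were above 0 in at least 3 siRNA libraries, most of them barely. The regulators C4BPA and C4BPB and the receptors CR1 and CR2, which belong to the chromosome 1 cluster, stayed at or below 0.05 CPM. Among the other membrane regulators, CSMD1, a large transmembrane inhibitor of complement, ranged from 46.8 to 155 CPM and SUSD4 from 6.68 to 17.8 CPM. Clusterin (CLU), a secreted inhibitor of the terminal complex, ranged from 28.1 to 53.1 CPM and the protease C1R from 8.12 to 18.2 CPM. C3, the central component, did not exceed 0.0834 CPM or 0.283 RPKM.

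With 4 h of enzalutamide, 0 of these 12 tested genes passed in edgeR (1 at an unadjusted p under 0.05), against 13.6% of all genes, and 0 in DESeq2. After 24 h 3 were higher and 0 lower (25% called, against 33.4% of all genes, median log2 fold change 0.045, 0.015 over all genes). Factor D (CFD), which activates the alternative pathway, led at 0.47 (SE 0.153, edgeR adjusted p = 0.0333). CSMD1 stood at 0.31 (adjusted p = 8.84e-05) and SUSD4 at 0.33 (adjusted p = 0.00375). Each was under the 2.63 of CD55, but CD55 was chosen by that rise. With 24 h of DHT, 1 was higher and 6 were lower (58.3% called, against 50.0% of all genes, median -0.705, 0.001 over all genes). CSMD1 fell by 1.31 (SE 0.045, adjusted p = 1.16e-10) and C1R by 1.06 (SE 0.064, adjusted p = 2.51e-08), in the direction of CD55 and CD59. After 4 h of DHT 2 were lower (16.7%, against 6.77% of all genes), C4A and CSMD1, the latter by 0.21 (edgeR adjusted p = 0.00722). In siControl cells enzalutamide left 4 of 37 higher and 2 lower (16.2% called, against 42.1% of all genes). In siGATA2 cells 0 passed in limma (2 at an unadjusted p under 0.05), against 0.412% of all genes. With GATA2 siRNA 13 were higher and 1 lower in vehicle, 35.1% and 2.70% of the 37 against 24.2% and 31.4% of all genes, and 12 and 1 under enzalutamide, 35.1% called against 54.5%. CLU led in both, at 2.47 (SE 0.054, adjusted p = 1.78e-10) and 2.65 (SE 0.054, adjusted p = 1.23e-10), a larger rise than those of CD46 and CD59. The near-identical genes C4A and C4B, counted among these, may share reads.

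**Figure D3:**
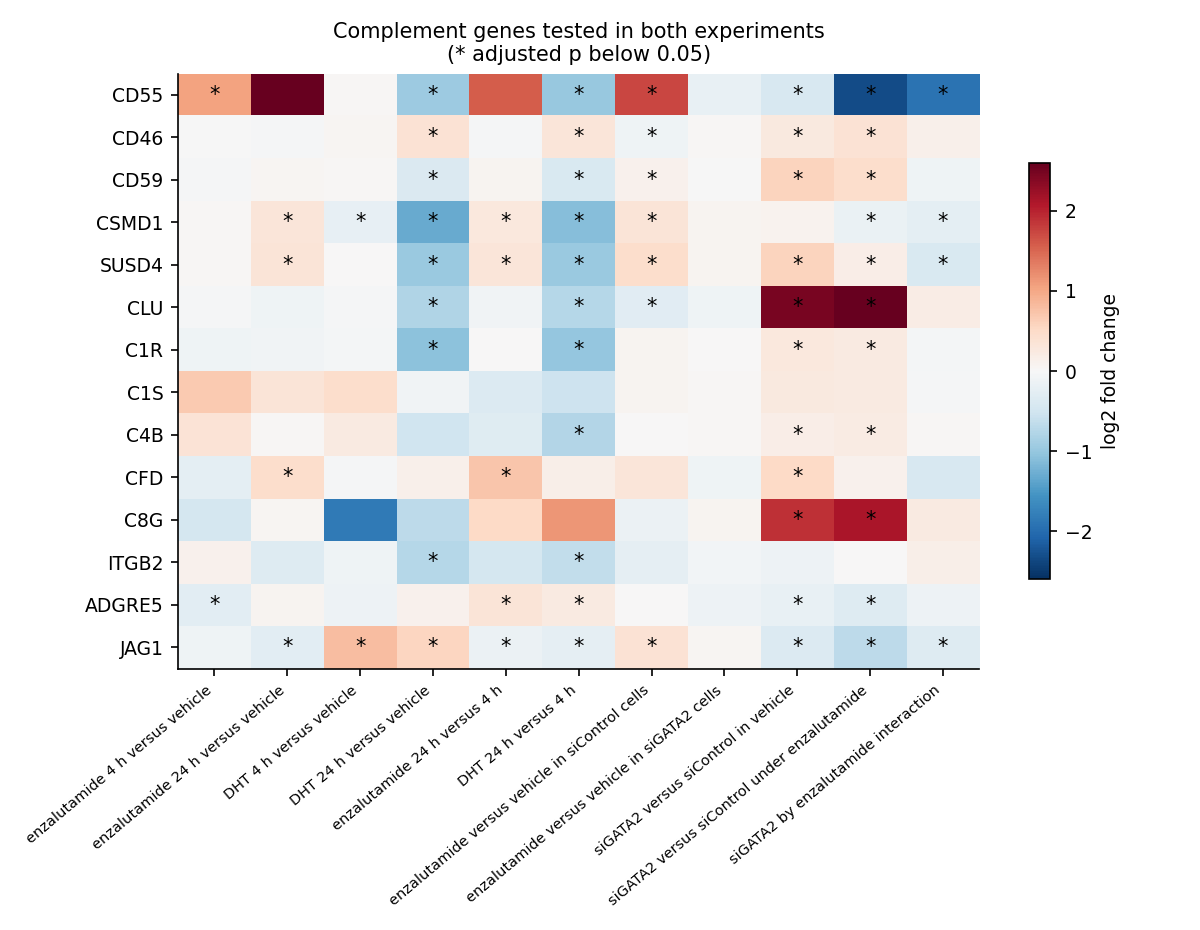
Log2 fold change, as colour, of CD55, CD46, CD59 and 11 other genes (9 complement genes and the binding partners ADGRE5 and JAG1) tested in both experiments and reaching 1 CPM or 1 RPKM in a library. Rows are genes, columns the 11 comparisons, and an asterisk marks an adjusted p below 0.05. The CD55 values at 24 h of enzalutamide carry no test. CLU is the strongest red under GATA2 siRNA (2.47 and 2.65), where CD55 is blue.

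The partners that bind these proteins on other cells were also measured. ADGRE5 (CD97), an adhesion receptor for CD55, fell by 0.27 after 4 h of enzalutamide (SE 0.064, edgeR adjusted p = 0.015), lay at 0.07 after 24 h (adjusted p = 0.446) and rose by 0.34 between both times (adjusted p = 0.00189). JAG1, a Notch ligand that binds CD46, rose by 0.80 after 4 h of DHT (SE 0.046, adjusted p = 7.71e-08) and by 0.56 after 24 h (adjusted p = 4.11e-07). Both were lower with GATA2 siRNA in vehicle (limma, -0.18, adjusted p = 0.00861, and -0.35, adjusted p = 7.68e-05).

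CD55 and CD59 need the GPI anchor, and all 28 genes listed for its synthesis and attachment were tested in both experiments. After 24 h of enzalutamide 6 were higher and 1 lower (25% called, against 33.4% of all genes), with PGAP1, which removes an acyl group from the anchor, at 0.39 (SE 0.088, edgeR adjusted p = 0.00418). PGAP1 was already higher at 4 h (0.29, edgeR adjusted p = 0.0475), where 1 gene was higher and 1 lower (7.14%, against 13.6%). After 24 h of DHT 13 were higher and 6 lower (67.9%, against 50.0%), and 1 was higher and 0 lower at 4 h (3.57%, against 6.77%). Between 4 h and 24 h of enzalutamide 4 were higher and 3 lower (25%, against 24.6% of all genes). The mannosyltransferase PIGZ was among the higher ones, at 0.48 (edgeR adjusted p = 0.00844). In siControl cells under enzalutamide 6 were higher and 9 lower (53.6%, against 42.1%), led by PIGW, which acylates the inositol ring, at -1.03 (SE 0.091, limma adjusted p = 9.13e-06), and the mannosyltransferase PIGM at -0.48 (adjusted p = 1.77e-06). In siGATA2 cells 0 of 28 passed in limma, with 3 at an unadjusted p under 0.05, where only 0.412% of all genes passed. With GATA2 siRNA 12 were higher and 8 lower in vehicle (71.4%, against 55.6%), and 14 and 8 under enzalutamide (78.6%, against 54.5%), led by PIGN, which adds ethanolamine phosphate, at 1.24 (SE 0.041, adjusted p = 2.5e-09) and 1.504 (adjusted p = 6.96e-10). The list median stayed between -0.04 and 0.13 in every comparison. With GATA2 siRNA it was 0.105 in vehicle and 0.125 under enzalutamide, where that of all genes was -0.027 and -0.003. After 24 h of DHT it was 0.085, against 0.001 over all genes.

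The 4 tested genes nearest to CD55 on each side, in the order of the GRCh38 annotation, were FCMR, C1orf116, PFKFB2 and YOD1 and then CD46, MIR29B2CHG, CD34 and PLXNA2. After 24 h of enzalutamide their log2 fold changes ran from -0.64 to 0.36, with 1 of 8 higher and 1 lower, where 33.4% of all genes passed. In siControl cells under enzalutamide they ran from -1.11 to 0.20, with 2 higher and 3 lower, where 42.1% of all genes passed. The lowest, C1orf116, fell by 1.11 (limma adjusted p = 4.16e-08) where CD55 rose by 1.73. PLXNA2 rose by 0.20 there (adjusted p = 0.0337), and its interaction was -0.30 (adjusted p = 0.0437), both in the direction of CD55. Its means were only 0.0593 RPKM in siControl vehicle and 0.0829 under enzalutamide, below the 0.1 RPKM added before the logarithm. C1orf116 rose by 1.23 after 24 h of DHT (edgeR adjusted p = 2.85e-11), where CD55 fell. FCMR and CD34 fell there with CD55, by 0.81 (adjusted p = 0.0307) and 0.99 (adjusted p = 0.0463). Both were low, at 0.893 and 0.347 CPM in vehicle and 0.506 and 0.172 CPM after DHT. In that comparison 4 of the 8 CD55 neighbours were higher and 2 lower, where 50.0% of all genes passed. Of the 8 tested neighbours of CD59, 2 were higher and 4 lower with GATA2 siRNA in vehicle, where 24.2% of all genes were higher and 31.4% lower. HIPK3 and ABTB2 were higher, as CD59 was (1.00, limma adjusted p = 1.29e-07, and 1.04, adjusted p = 7.7e-08). TCP11L1 and LINC00294 were among those lower (-1.02, adjusted p = 2.25e-07, and -1.19, adjusted p = 2.6e-07).

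**Figure D4:**
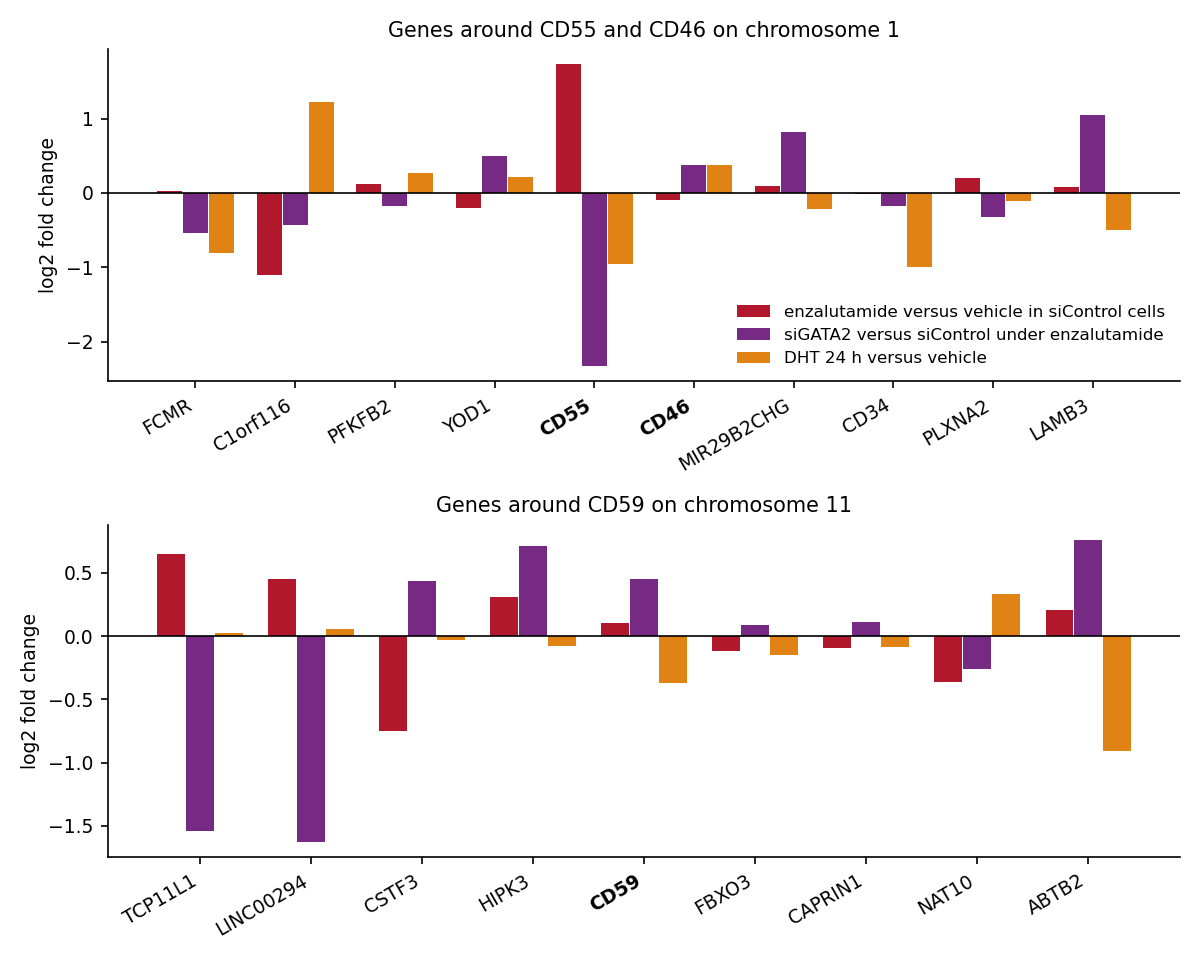
Log2 fold change of CD55 and CD46 with their neighbours on chromosome 1 (top) and of CD59 with its neighbours on chromosome 11 (bottom), in chromosome order and not to distance. Bars show enzalutamide in siControl cells (red), siGATA2 against siControl under enzalutamide (purple) and 24 h of DHT (orange). CD55 holds the largest red (1.73) and purple (-2.33) bars of its region.

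Genes were ranked by the smaller of their Pearson correlations with each member over the 10 ligand and the 12 siRNA libraries, on log2 values, among 11644 genes. These correlations describe libraries that share their conditions and carry no p-value. Closest to CD55 were EIF1, which acts in start codon selection (0.983 and 0.983), PCK2, the mitochondrial phosphoenolpyruvate carboxykinase (0.983 and 0.979), and SARS, the cytoplasmic seryl-tRNA synthetase (0.977 and 0.979). Their amplitudes were smaller, with log2 fold changes of 0.38, 0.98 and 0.71 after 24 h of enzalutamide and 0.70, 1.46 and 1.13 in siControl cells under enzalutamide. Closest to CD46 were the endoplasmic reticulum chaperone HSP90B1 (0.969 and 0.975), the zinc transporter SLC39A6 (0.965 and 0.986) and VMP1 (0.964 and 0.964). Closest to CD59 were the adhesion receptor ADGRG6 (0.978 and 0.985), ARL6IP5 (0.973 and 0.98) and TMEM59 (0.972 and 0.995). TMEM59 lay 0.57 lower after 24 h of DHT and 0.63 higher with GATA2 siRNA in vehicle, against 0.37 and 0.57 for CD59.

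**Figure D5:**
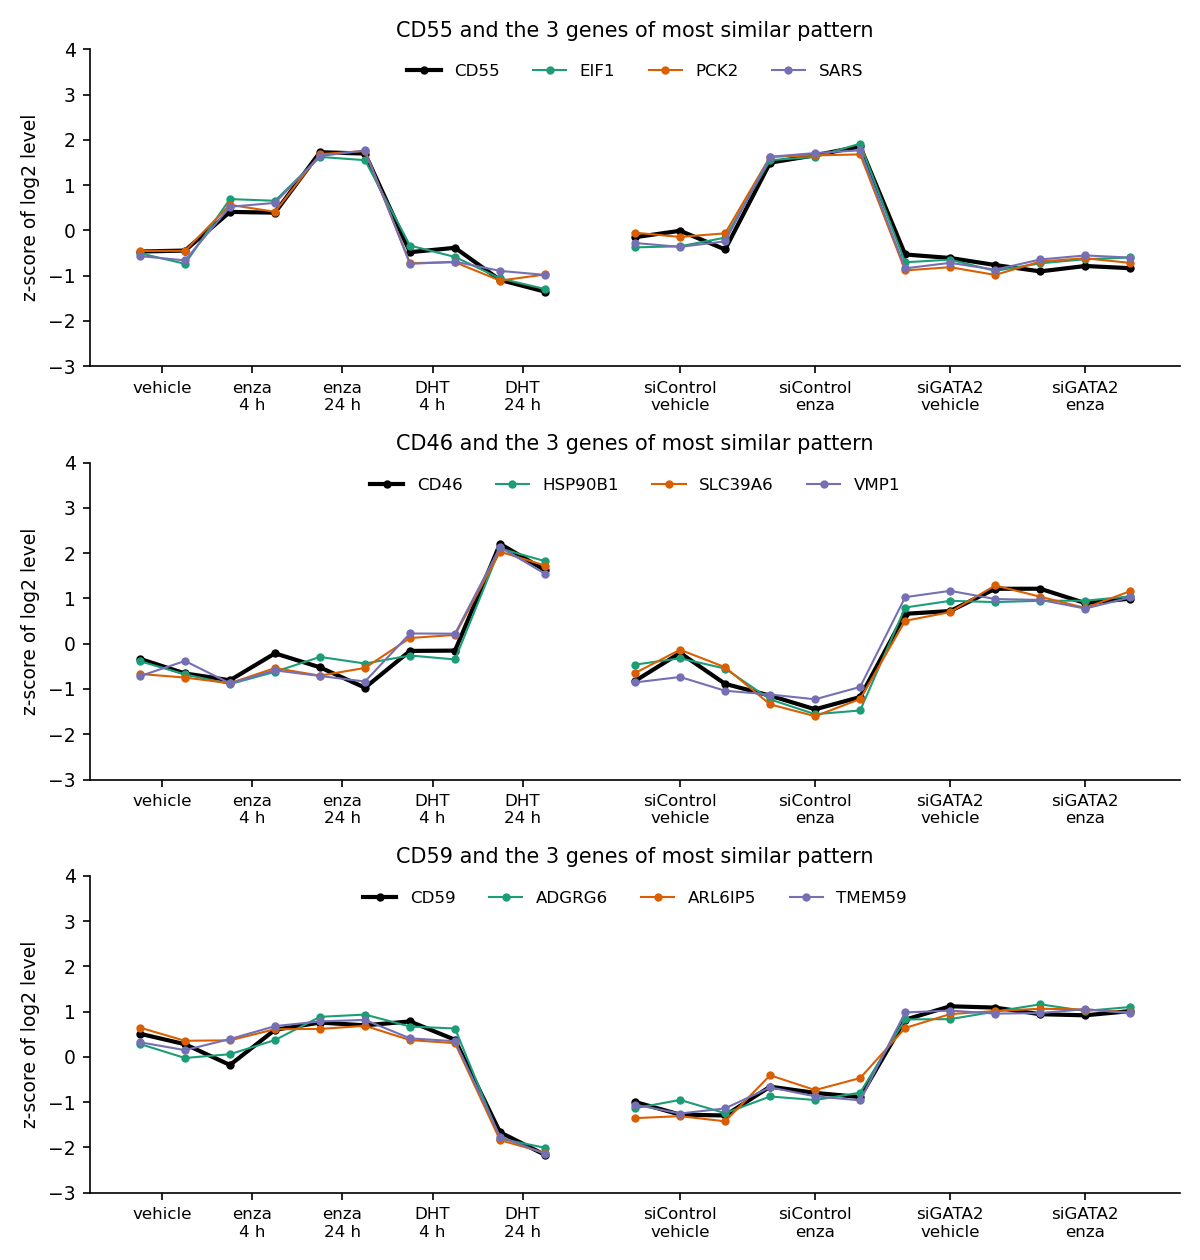
CD55, CD46 and CD59 (black) with the 3 genes of most similar pattern to each, as z-scores of log2 level (log2 of CPM or RPKM plus 0.1) over the 10 ligand libraries (left) and the 12 siRNA libraries (right), scaled within each experiment. CD55 and its companions peak after 24 h of enzalutamide and in siControl cells under enzalutamide, CD46 and CD59 part after 24 h of DHT, and both are high in siGATA2 cells.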

How the data were processed

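LNCaP mRNA was sequenced from poly(A)-selected, directional libraries. For the ligand experiment the authors deposited estimated counts per gene, made with TopHat and Partek Genomics Suite against hg19 (the submitters' processing notes name TopHat2 2.0). The sources used here name neither the annotation version nor a strand setting. For the siRNA experiment the deposited values were RPKM, that is reads scaled by transcript length and library size. No per-sample column was left unused.

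The members and gene lists were chosen with earlier results of these data known. Estimated counts were rounded and fitted with edgeR 4.0.16 (quasi-likelihood test, TMM scaling, filterByExpr) in 1 model of 5 conditions, giving 15555 genes, with vehicle columns of replicate 1 summed. RPKM values were fitted with limma 3.58.1 with a variance trend on log2(RPKM + 0.1) in 1 model of 4 conditions, over 20369 genes above 0 in at least 3 libraries, a scale that understates changes of low genes such as CD55. A gene passed at a Benjamini-Hochberg adjusted p below 0.05 over all genes tested. CPM were scaled by TMM and cannot be compared between genes. Intervals are 95%. Replicates are labelled biological.

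From the lists, the 2 genes with the largest change among those passing with a mean of at least 1 CPM or RPKM were named in each comparison. CSMD1 and SUSD4 at 24 h of enzalutamide, and later values of JAG1 and ADGRE5, were added after their values were seen, as were the named neighbours. The main fits did not pair libraries. Correlations of deviations between same-numbered libraries all exceeded 0.1 in 1 of 6 siRNA group pairs, the enzalutamide groups (0.113 to 0.241). They did so in 3 of 10 ligand group pairs. This is a hint from the data and not from the labels, so the replicate number entered only as a block in the alternatives. Alternatives covered DESeq2 1.42.0, other scaling, filters and pseudocounts, separate vehicle columns, the column-name prefix and the replicate number as blocks, and leaving out each replicate.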

Additional observations from a re-analysis of the deposited data

Results flagged for a closer look

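The CD55 response to enzalutamide differed between siControl and siGATA2 cells by the interaction term itself (-1.922 on the log2(RPKM + 0.1) scale, limma adjusted p = 2.58e-05), which is why it is listed here. All 3 siControl libraries under enzalutamide lay above all 3 in vehicle. All 3 siGATA2 libraries under enzalutamide lay below their vehicle libraries, at levels of 0.459 to 0.610 RPKM. That difference in siGATA2 cells did not pass the test (log2 fold change -0.19, interval -0.45 to 0.07, limma adjusted p = 0.602). The share of all genes without overlap was not counted. GATA2 itself moved with these groups, from 82.3 to 129.3 RPKM with enzalutamide in siControl cells and from 51.4 to 62.1 RPKM in siGATA2 cells. In the ligand experiment GATA2 was instead lower with enzalutamide, at 175.4 CPM after 4 h and 202.1 after 24 h against 229.9 in vehicle. Those log2 fold changes were -0.391 (edgeR adjusted p = 0.000198) and -0.185 (adjusted p = 0.00892), while CD55 was higher at both times. The part of GATA2 mRNA level in the result was not tested.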

How the results depend on the processing

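Of 559 alternative values over 34 results, 537 counted as unchanged. For tested results this meant the same direction and side of the threshold. For the 2 CD55 values without a test it meant a shift below their replicate spread (0.0321 for 24 h against vehicle and 0.0297 for 24 h against 4 h, log2). CD55 at 24 h of enzalutamide, described without a test, was 2.47 with the column-name prefix as a block (added after seeing the data) against 2.63. Aligning library medians gave -0.0505 for CD46 in siControl cells (adjusted p = 0.29) and -0.16 for the CD59 interaction (adjusted p = 0.0142). The replicate block gave -0.10 for CD46 in siControl cells (adjusted p = 0.0698) and changed no other call. Of 31 tests (3 genes in 11 comparisons, without the 2 described CD55 values), 17 had an adjusted p below 0.05, where 0.412% to 55.6% of all genes did by comparison, and 4, all of CD55, a fold above 2 with an unadjusted p below 0.05. Over single replicates left out, CD55 after 24 h of DHT ran from -1.16 to -0.82, on both sides of a fold of 2. With 1 RPKM added in place of 0.1, the CD55 change in siControl cells was 1.10 and its interaction -1.18, both still passing. Leaving out single replicates, where a group of 1 library is assumed to vary like the others, gave for CD46 -0.0539 to 0.0436 at 4 h of enzalutamide, -0.0831 to 0.0036 between 24 h and 4 h, -0.1229 to -0.0665 in siControl cells and 0.0947 to 0.1591 for the interaction. For CD59 it gave -0.0981 to 0.0322 at 4 h of enzalutamide, -0.0002 to 0.0647 at 4 h of DHT, 0.09 to 0.1309 in siControl cells, -0.0378 to 0.0007 in siGATA2 cells and -0.1443 to -0.1034 for the interaction. For CD55 at 4 h of DHT it gave -0.0267 to 0.0955. The cause of these changes was not tested. The depth limits CD55 most, at 26 estimated counts in the shallowest DHT 24 h library.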

Other observations

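Several secreted complement genes that were low in these cells were higher with GATA2 siRNA, and they are named after their values were seen. Factor B (CFB), which forms the alternative pathway convertase with C3b, spanned 0.368 to 1.56 RPKM over the siRNA libraries and was higher by 1.74 in vehicle (limma adjusted p = 4.1e-09) and by 1.18 under enzalutamide (adjusted p = 5.88e-08). C8G, a subunit of the terminal component C8, spanned 0.167 to 1.78 RPKM and was higher by 1.89 and 2.12 (adjusted p = 2.02e-05 and 8.55e-06). C3 was higher by 0.43 and 0.66 (adjusted p = 0.000432 and 1.73e-05) at 0.114 to 0.283 RPKM. CFB was also higher with enzalutamide in siControl cells, by 0.54 (adjusted p = 5.81e-05), and its interaction with GATA2 siRNA was -0.55 (adjusted p = 0.00119), of the same sign as that of CD55.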
